A study of Mus musculus with 2 samples.

Results

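A group of differentiated tongue keratinocytes marked by Slc7a11, Sptssb and Arg2 was examined at 2 times of day. A cell belonged to it when Slc7a11, Sptssb and Arg2 together made up at least 3 of every 10000 of its UMIs (unique molecular identifiers, each standing for 1 captured transcript), with Krt76 under 5 per 10000 and Col17a1, Itga6 and Itgb4 together under 10 per 10000. The last 4 genes mark another differentiated keratinocyte and the hemidesmosomes that tie basal cells to their matrix. The rule selected 440 of the 4078 cells that held at least 500 genes and 5000 UMIs with under 10% mitochondrial UMIs.

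The cells came from the tongue epithelium of male mice, with the host strain given as B57BL/6, aged 8 to 12 weeks. One group was collected at Zeitgeber time 0 (ZT0) and the other at ZT12, and no further treatment or genotype is given for either. The epithelium was digested with TrypLE, cells that kept out the dye 7-AAD were sorted as living, and each time gave 1 library of single-cell 3' tags. Because a time is a single library, no test could be run and each value describes these libraries, and every interval is an exact 95% interval that covers counting error only.

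Keratinocytes of the tongue divide in the basal layer, then leave it and switch from Krt5 and Krt14 to Krt4 and Krt13 as they move towards the surface. Slc7a11 is the transport subunit of system xc-, which with its partner Slc3a2 brings cystine into the cell in exchange for glutamate; the cysteine made from it feeds glutathione synthesis through glutamate-cysteine ligase, whose subunits are Gclc and Gclm. NRF2, encoded by Nfe2l2, is known to switch on these genes under oxidative or electrophilic stress, and ATF4 is known to switch on Slc7a11 when amino acids are short. Sptssb is a small subunit of serine palmitoyltransferase, the enzyme that opens sphingolipid and ceramide synthesis, and Arg2 is the mitochondrial arginase, which turns arginine into ornithine and urea.

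Promoter windows from RefSeq on GRCm38.p6, running from 250 bases before to 50 bases after each annotated start, were searched on both strands for TGACNNNGC, the core of the antioxidant response element bound by NRF2, and for TGATGNAA, the core of the C/EBP-ATF response element used by ATF4. Of the 6 genes chosen to mark the group, 4 matched an entry. The 250 bases before the start are printed 5′ to 3′ on the strand of the gene, with the matched letters in capitals. They are given for the cystine transporter and for 2 genes of glutathione chemistry, Gclm and Mgst1. Mgst1 was higher in the group than in the other cells, while Gclm was higher only in some of the comparisons given further on.

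Slc7a11, chr3:50443614-50443863, minus strand: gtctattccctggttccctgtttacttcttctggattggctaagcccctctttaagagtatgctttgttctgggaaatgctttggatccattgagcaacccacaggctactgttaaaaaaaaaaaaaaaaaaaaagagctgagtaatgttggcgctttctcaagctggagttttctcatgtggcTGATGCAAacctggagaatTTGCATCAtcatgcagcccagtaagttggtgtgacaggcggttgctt

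Gclm, chr3:122245307-122245556, plus strand: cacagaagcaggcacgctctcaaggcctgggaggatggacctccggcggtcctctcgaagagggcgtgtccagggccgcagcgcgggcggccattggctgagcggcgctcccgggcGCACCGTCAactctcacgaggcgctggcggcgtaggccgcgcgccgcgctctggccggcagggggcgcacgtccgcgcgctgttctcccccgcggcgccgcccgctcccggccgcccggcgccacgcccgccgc

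Mgst1, chr6:138140277-138140526, plus strand: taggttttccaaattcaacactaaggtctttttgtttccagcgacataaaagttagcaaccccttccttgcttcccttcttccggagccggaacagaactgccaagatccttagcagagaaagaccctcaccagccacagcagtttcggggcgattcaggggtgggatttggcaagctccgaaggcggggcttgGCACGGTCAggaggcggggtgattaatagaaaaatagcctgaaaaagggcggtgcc

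In the Slc7a11 window TGATGNAA occurred 2 times, 66 and 47 bases before the start and on opposite strands, and TGACNNNGC did not occur. Gclm held 1 match of TGACNNNGC at 134 bases and Mgst1 held 1 at 56 bases before the start, both on the reverse strand, and no match of TGATGNAA. For Gclc, Nqo1, Gpx2 and Ftl1, glutathione and NRF2 genes named further on, no match of TGACNNNGC was found, for lack of a match or of an entry. Over all 32851 windows of this length TGACNNNGC was present in 12.4% and TGATGNAA in 3.97%. Per gene, TGACNNNGC was found for 13.99% of all genes and for 10 of the 31 genes of a glutathione and NRF2 list with an entry, while TGATGNAA was found for 4.51% of all genes and, in that list, for Slc7a11 alone. In a list of 29 genes driven by ATF4 or of amino acid supply, which also holds Slc7a11, TGACNNNGC was found for 9 (31.0%), close to the 32.3% of the glutathione and NRF2 list, and TGATGNAA for 11 (37.9%). These matches describe the letters and do not show that a factor is bound.

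At ZT0 158 of 1525 cells met the rule (10.4%, interval 8.88 to 12.0), and at ZT12 282 of 2553 did (11.05%, interval 9.86 to 12.3). The ratio of the shares was 1.07 (0.874 to 1.30), so the group took up a like part of both libraries within counting error. The other cells low in hemidesmosome genes and in Krt76 are called other suprabasal cells (744 at ZT0 and 1231 at ZT12), and those low in hemidesmosome genes but with Krt76 at 5 or more per 10000 are called Krt76-high cells (29 and 40). Cells with 10 or more hemidesmosome UMIs per 10000 are called hemidesmosome-high (594 and 1000). The name other suprabasal follows these limits only, and that group is a mixture. Its median Krt4 was 6.95 per 10000 at ZT0 and 48.7 at ZT12, against 158 and 199 in members. It also held markers of basal and of Langerhans cells, as given further on. Members were deep, with a median of 44919.5 UMIs at ZT0 and 36221.5 at ZT12, against 32998 and 26981 in the other suprabasal cells. The libraries shared 2 barcode sequences, none of them among members.

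Sptssb (ENSMUSG00000043461, chromosome 3, 69819542 to 69859940, mm10, minus strand) carried the rule. It gave 77.2% of the UMIs of the 3 summed genes in members at ZT0 and 77.3% at ZT12, and it was found in 152 of 158 and 277 of 282 members. Its level, as CPM (the usual scaling of counts to the UMIs summed over all cells of a group), was 448 CPM at ZT0 and 479 CPM at ZT12 in members, and 36.4 and 45.0 CPM in the other suprabasal cells. Since this gene chose the cells, the gap describes the choice.

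Slc7a11 (ENSMUSG00000027737, chromosome 3, 49892526 to 50443614, minus strand) was in 87 members at ZT0 and 114 at ZT12, so many cells of the group held none of its UMIs. The middle member had 0.17 per 10000 at ZT0 and 0 at ZT12, and the highest had 8.2 and 7.6. The 10% of members with the most Slc7a11 UMIs held 48.1% and 65.3% of them. For Sptssb the matching values were 23.9% and 25.1%. The evenness of Sptssb is in part set by the rule, most of whose UMIs it gave. It also had 3249 and 4946 UMIs in members against 509 and 608 of Slc7a11, and a low count raises such a share. The 2 genes can therefore not be ranked by evenness from these values. Arg2 (ENSMUSG00000021125, chromosome 12, 79130777 to 79156301, plus strand) was in 116 and 204 members at 62.2 and 81.8 CPM. All 3 genes were present in 67 members at ZT0 and 90 at ZT12, 2 of them in 63 and 133, and 1 alone in 28 and 59.

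With each cell thinned to 5000 UMIs, Slc7a11 was seen in 22.2% of members at ZT0 and 14.5% at ZT12. In hemidesmosome-high cells, taken as the level that free RNA could give, the thinned shares were 0.673% and 0.700%. Before thinning the shares were 55.1% and 40.4% of members against 4.21% and 2.90% of hemidesmosome-high cells, whose median depths were 23557 and 18692 UMIs. Slc7a11 counts towards the rule for members, so this gap is partly built in and describes the choice.

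The other 3 marker genes were not in the rule, but they had been picked from these same cells and support nothing by themselves. Mgst1, a membrane-bound glutathione transferase (ENSMUSG00000008540, chromosome 6, 138140316 to 138156755), stood at 336 and 288 CPM in members and 113 and 103 CPM in the other suprabasal cells. Thbd, thrombomodulin, the thrombin receptor that turns clotting towards anticoagulation (ENSMUSG00000074743, chromosome 2, 148404466 to 148408188), stood at 132 and 115 CPM against 51.1 and 54.4 CPM. Gzmn, granzyme N, a serine protease of a family best known from killer lymphocytes (ENSMUSG00000015443, chromosome 14, 56165797 to 56174599), stood at 22.8 and 14.8 CPM against 1.81 and 0.722 CPM. Mgst1 was widespread, in 153 and 264 members, whereas Gzmn was in 53 members of each library.

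Markers of lymphocytes were close to absent in members. Of 14 T and natural killer cell markers, 13 had 0 UMIs in members of each library, Cd3e, Nkg7, Gzma, Gzmb and Prf1 among them, and the last, Cd7, had 3 and 5 UMIs. Of 12 Langerhans and myeloid markers 7 had 0 UMIs at ZT0 and 6 at ZT12, Cd207, Ptprc, Lyz2 and Csf1r among them. The list summed to 50.7 and 46.8 CPM in members, most of it from Mfge8, a secreted milk fat globule protein (43.4 and 42.7 CPM), and it summed to 655 and 183 CPM in the other suprabasal cells. Among 10 granzyme genes Gzmn held 165 and 153 UMIs, followed by Gzmc with 14 and 4 and Gzmm with 3 and 12.

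Levels pooled over bins of cells were compared across the limit of the rule. Just outside it, at 2 to 3 summed rule-gene UMIs per 10000, lay 56 and 112 cells, and just inside, at 3 to 4, lay 35 and 72. Mgst1 was 226 CPM just outside and 247 CPM just inside at ZT0, and 135 and 183 CPM at ZT12, and it reached 482 and 421 CPM in the few cells over 10. Ptgr1, prostaglandin reductase 1, which also removes reactive aldehydes, climbed from 247 to 339 CPM over the same step at ZT0 and from 212 to 331 CPM at ZT12. Gzmn came in later, with 3.24 and 1.28 CPM at 3 to 4, 12.5 and 9.03 CPM at 4 to 6, and 49.9 and 29.5 CPM at 6 to 10. Krt14 went the other way over this step, from 1414 CPM just outside to 934 CPM just inside at ZT0 and from 1190 to 536 CPM at ZT12. At 4 to 6 it was 1157 CPM at ZT0 and 423 CPM at ZT12. Cells thus lay on both sides of the limit. Pooled levels cannot show whether single cells form 1 range or a mixture of kinds, and this was not tested.

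**Figure D1:**
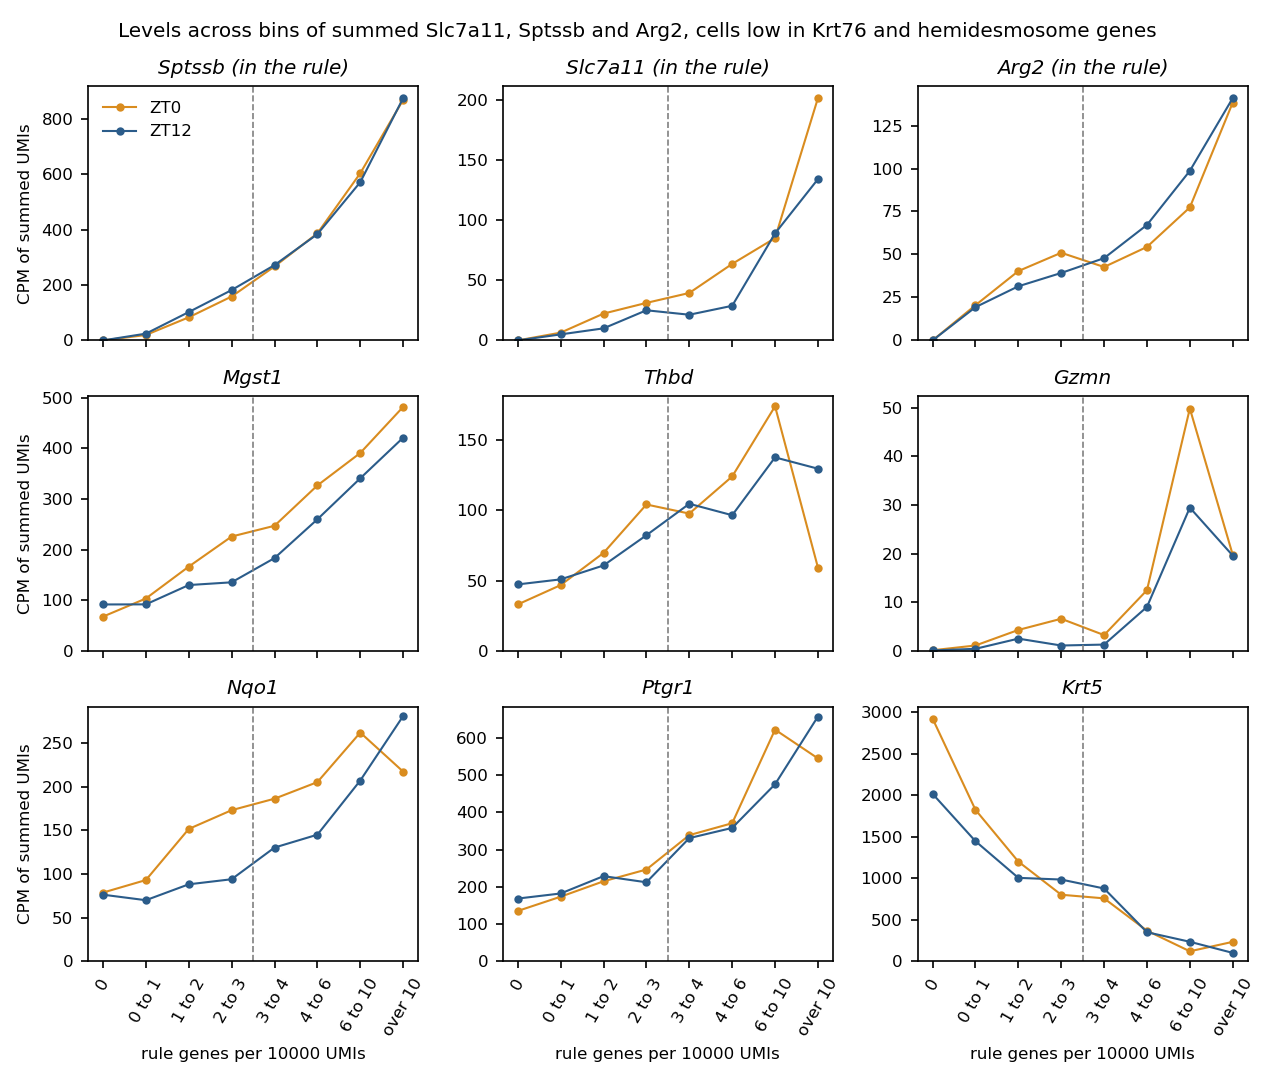
CPM of summed UMIs (vertical axes, linear) in cells grouped by their summed Slc7a11, Sptssb and Arg2 UMIs per 10000 (horizontal axes), for ZT0 in orange and ZT12 in blue, with the dashed line at the limit of 3; there is 1 library per time and no error bar. Mgst1, Nqo1 and Ptgr1 climb on both sides of the line, Gzmn is mostly seen at 6 to 10, and Krt5 declines; the bin over 10 holds 6 and 33 cells.

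The label of differentiated keratinocytes fits high Krt4 and Krt13. Krt4 was 21940 CPM at ZT0 and 23995 CPM at ZT12 in members, and Krt13 was 33133 and 39792 CPM. Against hemidesmosome-high cells 11 of 13 listed differentiation markers were at least 1.5-fold higher in both libraries. The median log2 ratio was 2.24 beside -0.25 over all genes. The rule kept hemidesmosome-high cells out of the group, so this contrast is in part built in and describes the choice. Against the other suprabasal cells 3 of 14 were higher and 1 lower, beside 1.16% and 5.06% over all genes. With Krt4 matched 2 of 14 were higher and 1 lower, and against Krt76-high cells 2 of 13 and 2. Of 12 basal markers 10 were at least 1.5-fold lower in members than in the other suprabasal cells in both libraries, and none was higher, beside 5.06% lower over all genes; 3 of the 12 (Col17a1, Itga6, Itgb4) were used by the rule. Krt5 stood at 366 and 402 CPM against 2003 and 1538 CPM, and Krt14 at 913 and 383 CPM against 4410 and 3843 CPM. The other suprabasal cells were thus not free of basal keratins, and the low basal markers of members describe a contrast with that mixture. With Krt4 matched, as described further on, 3 of 10 basal markers were lower and 1 was higher, Krt15, beside 2.4% and 1.87% of all genes. Against the Krt76-high cells 2 of 10 were lower and 4 higher, beside 7.73% and 7.79% of all genes. Krt4 was under 20 per 10000 in 10 members at ZT0 and 20 at ZT12, so a small part of the group was not clearly of this kind.

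Beside the other suprabasal cells, 12 of 2687 genes of mean CPM at least 50 were at least 2-fold higher in members in both libraries (0.447%), and 25 were at least 2-fold lower (0.93%). The 12 were the rule gene Sptssb and Mgst1, Ada, Tmprss4, Ptgr1, Siah2, Arhgef26, Thbd, Il13ra1, Ces1b, Nqo1 and Krtdap. Nqo1, a quinone reductase and a standard NRF2 target, was 220 and 178 CPM in members and 106 and 78.0 CPM in the others. Ada, adenosine deaminase, was 143 and 103 CPM against 23.5 and 36.7 CPM. Il13ra1, a receptor subunit for interleukins 4 and 13, was 139 and 147 CPM against 65.7 and 70.2 CPM. Among the lowest genes, Krt36 and Krt84, hard keratins of filiform papillae, stood at 21.8 and 21.3 CPM and at 1.52 and 2.23 CPM in members, against 717 and 773 CPM and 315 and 375 CPM. Cd74, the invariant chain of class II molecules, was 1.24 and 0.387 CPM against 251 and 51.2 CPM. Dcn, decorin, was 17.7 and 25.3 CPM against 832 and 425 CPM. Dcn was also 924 and 449 CPM in the Krt76-high keratinocytes and 1152 and 623 CPM in hemidesmosome-high cells. Against all other kept cells 27 genes were at least 2-fold higher (0.985%) and 69 lower (2.52%), and against the Krt76-high cells 66 were higher (2.52%) and 141 lower (5.39%). With every cell thinned to 5000 UMIs, which removes the gap in depth, 15 genes were at least 2-fold higher than in the other suprabasal cells and 29 lower.

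Because the other suprabasal cells are a mixture, members were also set beside those that met the same minimum of Krt4, called Krt4-matched for short. This comparison was added after the data were seen. It took the 109 members at ZT0 and 209 at ZT12 with Krt4 at 100 or more per 10000, and the 187 and 477 other suprabasal cells that met the same limit. In it 1.87% of 8767 genes were at least 1.5-fold higher in members in both libraries with an interval that excluded 1, and 2.4% were lower. At 2-fold, 8 of 2578 genes were higher (0.31%) and 13 lower (0.504%). A shared minimum of Krt4 does not make the cells alike in stage or state. Krt5 was 106 and 179 CPM in these members against 288 and 532 CPM in the others. At ZT0 22.9% of these members and 79.7% of the others were high in the interferon list described further on. The part of these gaps in the contrasts that follow was not tested.

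Several genes of glutathione supply and use were higher in these members. Of 35 measured genes of the glutathione and NRF2 list, 8 were higher and 1 was lower, with a median log2 ratio of 0.15 beside -0.0046 over all genes. The 8 were the rule gene Slc7a11, both subunits of glutamate-cysteine ligase (Gclc, Gclm), Gpx2, Mgst1, Nqo1, the ferritin light chain Ftl1 (whose reads near-identical copies could share) and Nfe2l2 itself. Slc7a11 chose the members and Mgst1 was a marker picked from these same cells, so part of this count is built in. Gclm was 127 CPM at ZT0 and 200.3 CPM at ZT12 in members and 79.7 and 95.4 CPM in the others, ratios of 1.59 (1.42 to 1.77) and 2.099 (1.96 to 2.25). Gclc was 113 and 149 CPM against 65.9 and 91.0 CPM. Gpx2, a glutathione peroxidase of epithelia, was 917 and 960.5 CPM against 503 and 421 CPM.

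The list was not raised as a whole. Slc3a2, the partner of Slc7a11, was 71.2 and 102 CPM in members and 75.2 and 80.2 CPM in the others, ratios of 0.95 (0.83 to 1.08) and 1.27 (1.17 to 1.39). Hmox1, heme oxygenase 1 and another known NRF2 target, was 5.37 and 7.61 CPM against 6.98 and 7.13 CPM. Txnrd1 and Srxn1, which serve the thioredoxin and peroxiredoxin cycles, missed the 1.5-fold limit in 1 library each. Slc6a6, the taurine transporter, was lower, at 7.22 and 16.7 CPM against 12.7 and 45.0 CPM. Set beside all other suprabasal cells, the list counted 8 higher and 2 lower of 37 against 1.16% higher and 5.06% lower of all genes, with Srxn1, Gstp1 and Mgst2 in place of Gclm, Ftl1 and Nfe2l2; there Gclm was 151 against 147 CPM at ZT0. Against the Krt76-high cells 15 of the list were higher and 3 lower, where 7.79% of all genes were higher and 7.73% lower. Both of these counts also include Slc7a11 and Mgst1.

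**Figure D2:**
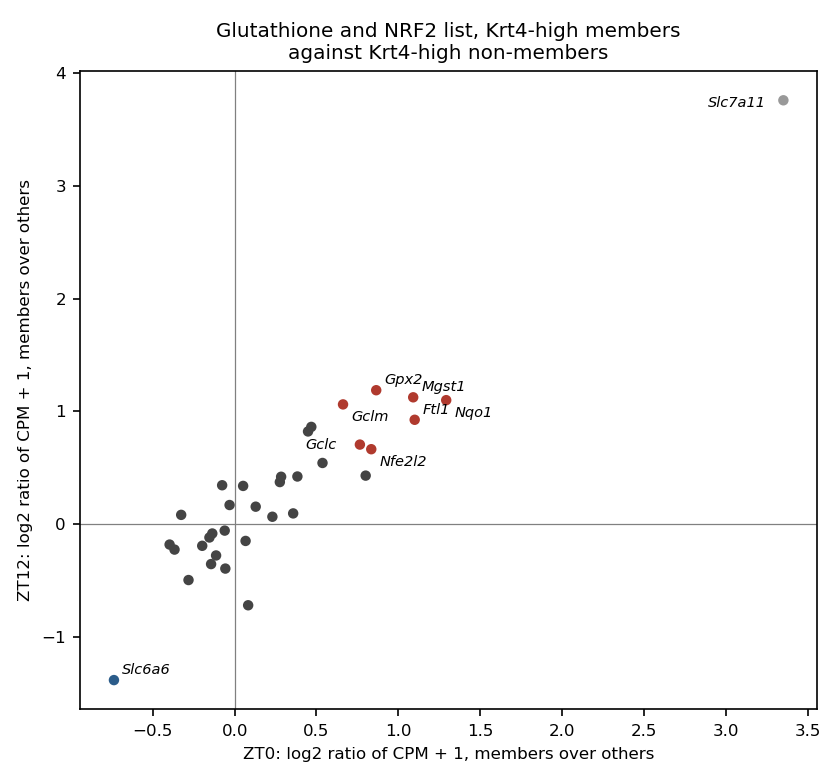
Log2 ratio of CPM + 1 of members over other suprabasal cells, both with Krt4 at 100 or more per 10000, at ZT0 (horizontal axis) and ZT12 (vertical axis), 1 point per gene of the glutathione and NRF2 list. Red points were at least 1.5-fold higher in both libraries, the blue point lower, and grey Slc7a11 was used by the rule; most of the 35 genes lie near 0 in both.

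Sphingolipid genes were mostly level around the high Sptssb. In the Krt4-matched comparison 4 of 29 were higher and 2 lower, with a median log2 ratio of -0.06. Over all genes 1.87% were higher and 2.4% lower, and the 4 include Sptssb, which chose the members. Besides Sptssb the higher genes were Cers4, a ceramide synthase (67.3 and 57.8 CPM against 27.0 and 18.1 CPM), and the ceramidases Asah1 and Acer2. The catalytic subunits that Sptssb serves did not reach 1.5-fold: Sptlc1 was 62.7 and 58.7 CPM against 47.4 and 51.2 CPM, and Sptlc2 was 79.7 and 70.5 CPM against 65.8 and 51.7 CPM. Sptssa, the other small subunit, was 89.6 and 94.9 CPM against 103 and 114 CPM, and did not share the gap seen for Sptssb.

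Arginine and polyamine genes showed little beyond Arg2, which was 65.1 and 86.3 CPM in the Krt4-matched members and 16.6 and 11.4 CPM in the others. Of 20 genes 2 were higher, the second being Asl, argininosuccinate lyase (19.8 and 20.6 CPM against 12.3 and 11.9 CPM), and none was lower. Over all genes 1.87% were higher and 2.4% lower in this comparison. Odc1, which makes putrescine from ornithine, was 17.9 and 18.1 CPM against 31.5 and 25.9 CPM, and missed the limit in 1 library. Nos2, which competes for arginine, had 0 UMIs in all these cells. Genes that ATF4 drives gave 1 higher, Slc7a11 itself, and 1 lower of 27, with Asns, asparagine synthetase, at 59.0 and 84.7 CPM against 58.5 and 63.9 CPM and the stress gene Nupr1 at 5.55 and 4.47 CPM against 22.2 and 14.1 CPM.

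Clotting and protease genes were divided. Thbd was 137 and 119 CPM in the Krt4-matched members against 43.0 and 43.6 CPM, and Serpine2, an inhibitor of thrombin, was 76.4 and 18.0 CPM against 18.0 and 5.79 CPM. On the other side were Serpinb2, the plasminogen activator inhibitor 2 (30.3 and 23.9 CPM against 83.9 and 79.5 CPM), S100a10, a plasminogen-binding protein (103 and 87.2 CPM against 281 and 359 CPM), and F2rl1, a receptor cut by trypsin-like proteases. Of the 14 measured, 3 were higher and 3 lower, beside 1.87% and 2.4% over all genes. Among other genes, named after their values were seen, the LIM homeodomain factor Isl1 was 72.2 and 45.3 CPM against 13.5 and 8.92 CPM. The homeobox factor Nkx2-3 went the other way, at 41.3 and 39.4 CPM against 119 and 119 CPM, and Krt7, a keratin of simple epithelia, was 0.37 and 4.95 CPM against 52.8 and 53.0 CPM.

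Members differed among themselves along Slc7a11. Those with at least 1 Slc7a11 UMI per 10000 (41 at ZT0 and 46 at ZT12) were set beside those with none (71 and 168); this split uses a rule gene, and the genes named for it were chosen after their values were seen. Of 2633 genes 0.57% were at least 2-fold higher in the Slc7a11-high members in both libraries and 0.684% were lower. Gclc was 240.3 and 331 CPM against 75.5 and 92.2 CPM, ratios of 3.18 (2.70 to 3.76) and 3.59 (3.19 to 4.05), and Gclm was 239 and 414 CPM against 119 and 146 CPM. Here Slc3a2 also was higher, at 131 and 163 CPM against 55.3 and 76.7 CPM. Leaving aside Slc7a11, which made the split, 6 of the other 36 glutathione and NRF2 genes were higher, Nqo1, Srxn1 and Ftl1 being the rest of them, and 2 were lower, Mgst2 and Slc6a6; over all genes 2.04% were higher and 2.6% lower by the same limit.

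Of 28 measured transcription factor genes of a differentiation list, 2 were higher in the Slc7a11-high members, Pax9 and Barx2, and 4 were lower, with a median log2 ratio of -0.19. Over all genes 2.04% were higher and 2.6% lower in this split. Other factors, outside that list, were higher: Isl1 was 132 and 110 CPM against 51.6 and 24.4 CPM, the homeobox gene Tlx1 was 71.8 and 44.3 CPM against 19.9 and 9.50 CPM, and the LIM-only gene Lmo1 was 58.2 and 56.0 CPM against 20.2 and 18.7 CPM. Akr1b8, an aldo-keto reductase, was 57.1 and 72.3 CPM against 12.5 and 11.9 CPM. Slc7a11-free members in turn held more of several genes, some of them surface keratinocyte genes. Krt1 was 156 and 43.7 CPM in them against 13.6 and 1.68 CPM, Krt6b 255 and 772 CPM against 71.8 and 123 CPM, and Serpinb12 811 and 507 CPM against 283 and 88.6 CPM. Outside the surface genes, Cyp2f2 was 581 and 738 CPM in them against 42.4 and 137 CPM. Ndufa4l2 was 422 and 471 CPM against 14.7 and 51.6 CPM. Whether the Slc7a11-free members are at a later stage was not tested. Of 14 cornified envelope genes 6 were lower in the Slc7a11-high members and none was higher, beside 2.6% lower and 2.04% higher over all genes. Sptssb was not aligned with Slc7a11, at 309 and 398 CPM in the Slc7a11-high members and 501 and 489 CPM in the Slc7a11-free ones; both genes count towards the limit on the sum. The interferon list, described further on, was also lower at ZT0 in the Slc7a11-high members, with a median of 1.20 UMIs per 10000 against 3.19, and its part in these differences was not tested.

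**Figure D3:**
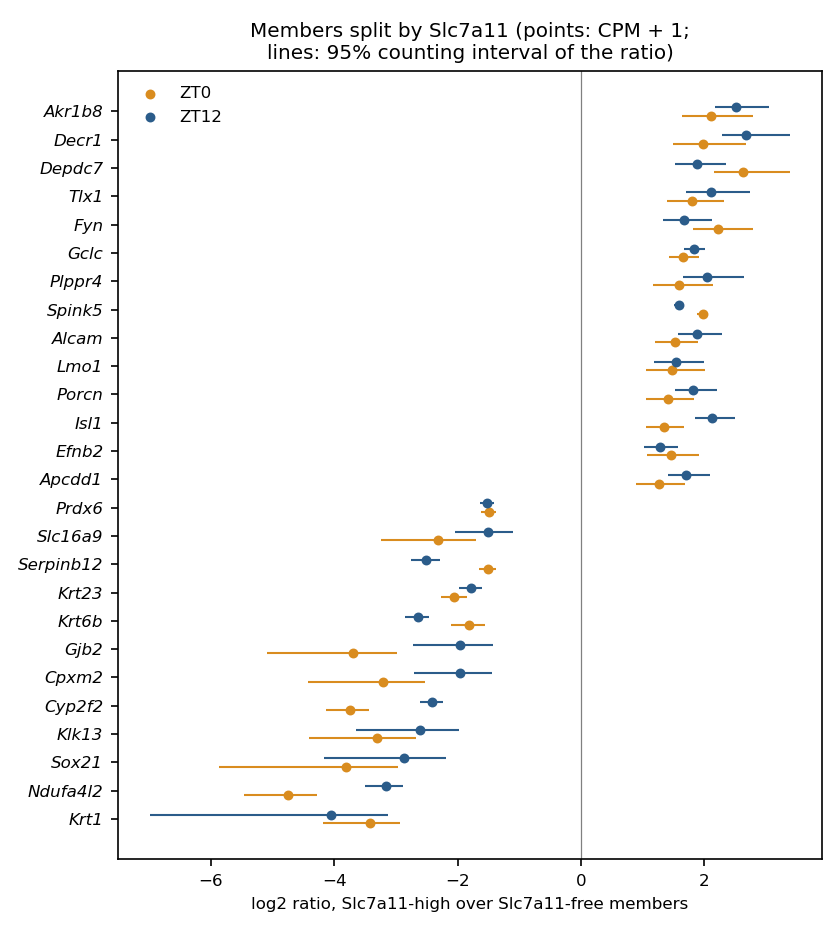
Log2 ratio (horizontal axis) of members with at least 1 Slc7a11 UMI per 10000 over members with none, for genes at least 2-fold apart in both libraries, with ZT0 in orange and ZT12 in blue; points use CPM + 1 and lines are 95% counting intervals of the ratio. Gclc, Isl1, Tlx1 and Akr1b8 lie to the right in both libraries, and Krt1, Krt6b and Serpinb12 to the left.

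Inside the members 4 of 2619 genes of mean CPM at least 50 were at least 2-fold higher at ZT12 (0.153%) and 16 were at least 2-fold lower (0.611%). Among these were genes of the clock, of interferon responses and of the cornified envelope. Of the 6 marker genes, 3 were held to the same summed limit in both libraries, so their likeness between the times is in part set by the rule. Of the other 3, Gzmn passed the lower limit of 1.5-fold, with 22.8 CPM at ZT0 and 14.8 CPM at ZT12 (ratio 0.651, 0.519 to 0.816). Slc7a11 was 70.2 and 58.8 CPM (ratio 0.838, 0.744 to 0.945), and Arg2 was 62.2 and 81.8 CPM (ratio 1.31, 1.17 to 1.48). Of 36 glutathione and NRF2 genes 1 was at least 1.5-fold higher at ZT12, Slc6a6, and 2 lower, Gsr and Osgin1, beside 2.01% higher and 4.13% lower of all 8821 genes of mean CPM at least 5.

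Clock genes differed between the times in members. Of 10 measured clock genes 7 were higher and 2 lower at ZT12, beside 2.01% and 4.13% of all genes. Dbp, a transcription factor gene driven directly by the clock, was 2.62 CPM at ZT0 and 107 CPM at ZT12 (ratio 41.0, 26.1 to 68.3), and was seen in 16 of 158 and 254 of 282 members. Per3, a clock repressor, was 12.0 and 79.8 CPM, and Nr1d2, which encodes REV-ERB beta, was 3.17 and 36.8 CPM. Arntl, which encodes the activator BMAL1, ran the opposite way at 12.0 and 1.35 CPM (ratio 0.113, 0.0593 to 0.200). In the other suprabasal cells the log2 ratio was 5.47 for Dbp and -2.95 for Arntl, beside 4.90 and -2.46 in members, and the difference between these groups was not tested.

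Interferon-stimulated genes were lower at ZT12, and at ZT0 they were uneven among members. All 14 measured genes of the interferon list had less at ZT12, the median log2 ratio being -2.69. The 21 genes of the list summed to 727 CPM at ZT0 and 75.1 CPM at ZT12. Ifi27l2a was 354 and 17.2 CPM and Isg15, a ubiquitin-like modifier, had 610 UMIs in members at ZT0 and 31 at ZT12. Of 15 antigen presentation genes 10 were lower, among them B2m, the light chain of class I molecules, with 250 and 22.2 CPM. By the 1.5-fold limit used for both lists, 4.13% of all genes were lower at ZT12. At ZT0 the 10% of members with the most UMIs held 55.5% of those of Ifi27l2a and 85.9% of those of Isg15.

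Per cell, the interferon list made up a median of 1.90 UMIs per 10000 in members at ZT0 and 0.502 at ZT12, and 41 of 158 members (25.9%, 19.3 to 33.5) reached 5 per 10000 at ZT0 against 5 of 282 (1.77%) at ZT12. The other suprabasal cells at ZT0 reached it in 45.8% (42.2 to 49.5) and the hemidesmosome-high cells in 48.7% (44.6 to 52.8). The Krt76-high cells were near the members, with 7 of 29 (24.1%, 10.3 to 43.5) and a median of 1.95 per 10000. The contrast was larger among cells with Krt4 at 100 or more per 10000. It was 22.9% (15.4 to 32.0) of the members against 79.7% (73.2 to 85.2) of the other suprabasal cells, with medians of 1.79 and 18.3 per 10000. In that comparison 9 of 16 interferon genes were lower in members in both libraries, beside 2.4% of all genes. Cells of 1 library are not replicates, so these shares describe the ZT0 library.

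**Figure D4:**
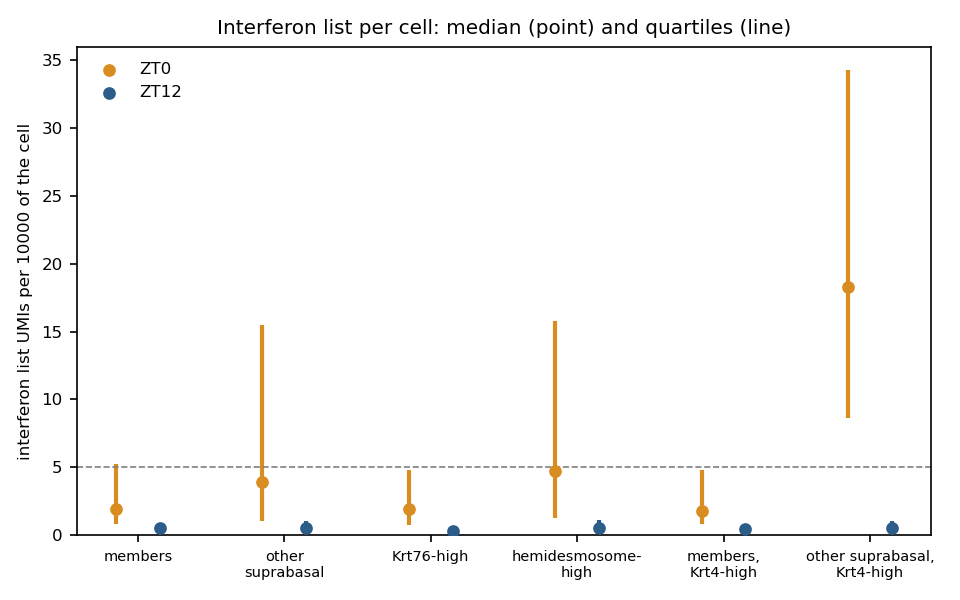
UMIs of the interferon list per 10000 of a cell (vertical axis, linear) in members and comparison cells, with the median as a point and the quartiles as a line, ZT0 in orange and ZT12 in blue, and the limit of 5 as a dashed line. At ZT0 the members with high Krt4 have a median of 1.79 and the other suprabasal cells with high Krt4 one of 18.3, while all groups are under 1 at ZT12.

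Cornified envelope genes also ran lower in members at ZT12: 9 of 14 were lower and none higher, the median log2 ratio being -0.79. Over all genes 4.13% were lower and 2.01% higher by the same limit. Lor, loricrin, was 158 and 14.03 CPM and Cnfn, cornifelin, was 160.2 and 49.2 CPM. These UMIs sat in few cells: at ZT0 the 16 members with the most held 95.9% of those of Lor and 89.6% of those of Cnfn. Hopx, a homeodomain-like regulator of differentiation, was lower more widely, at 454 and 119 CPM with UMIs in 156 of 158 and 248 of 282 members. Chil4, a chitinase-like secreted protein, was 169 and 0.484 CPM, and 27 members held all its UMIs at ZT0. Leaving out members with 5 or more interferon list UMIs per 10000, an alternative added after the data were seen, removed 41 members at ZT0 and 5 at ZT12. Then 2 cornified envelope genes were at least 1.5-fold lower, and the log2 ratio of Lor was 0.06. Of the interferon genes 3 were then lower, but the filter took out the cells highest in that list, so this count is built in.

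The 4 genes higher at ZT12 were Dbp, Krt17, Ccnd2 and Crabp1. Ccnd2, cyclin D2, was 50.5 and 105 CPM and Crabp1, a retinoic acid binding protein, was 44.5 and 91.6 CPM. Krt17 was 117 and 474 CPM, but the 10% of members with the most held 96.7% and 98.9% of its UMIs, and its log2 ratio changed from 2.01 to -2.90 when only members with Krt4 at 50 or more per 10000 were kept. Krt14 (913 and 383 CPM) and Krt10 (77.9 and 37.4 CPM) were lower at ZT12 and likewise lay in few cells, 94.2% and 78.2% of their ZT0 UMIs being in 16 members. Cell division genes were lower at ZT12 in 8 of 10, beside 4.13% of all genes, with the 14 of the list summing to 234 and 89.1 CPM. Yet in members with Krt4 at 100 or more they summed to 79.6 and 84.9 CPM. This difference thus lay outside the cells highest in Krt4.

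**Figure D5:**
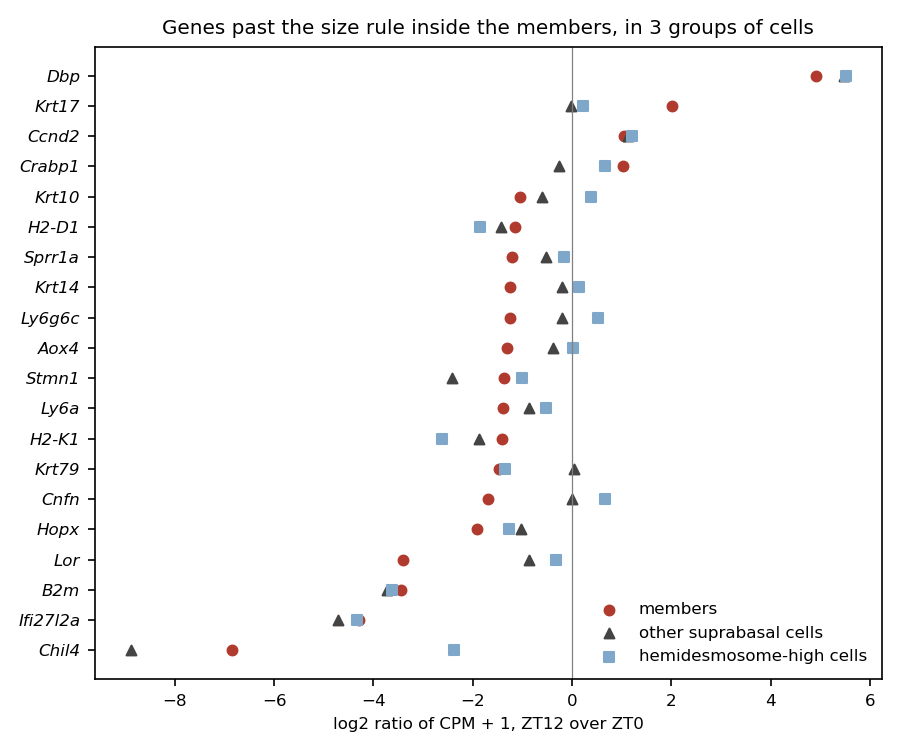
Log2 ratio of CPM + 1 at ZT12 over ZT0 (horizontal axis) for the 20 genes at least 2-fold apart inside the members, in members (red circles), other suprabasal cells (black triangles) and hemidesmosome-high cells (blue squares), with 1 library per time and no error bar. Dbp and Ifi27l2a lie close together in all of these groups, while Lor is at -3.40 in members and -0.87 in the other suprabasal cells.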

How the data were processed

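Per the file headers, the deposited values are UMI counts per gene and barcode, not normalized, written by Cell Ranger 4.0.0; the submitters' processing notes name Cell Ranger 2.1.1 and mm10, and the versions could not be reconciled. The number of mice per library and the annotation release are not given in the sources used here. Counts were used as deposited, with no correction for free RNA and no doublet caller; leaving out the 5% of cells with the most UMIs was an alternative. Of 32285 genes, the 38 symbols shared by several identifiers were left out, Ddit3 and Ccl27a among them. Gzmn, Chil4, Krt6b, Gm3776 and Ftl1 have close relatives, and how the counting split shared reads could change their values. Gene positions came from GENCODE M21 and 32235 identifiers matched.

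UMIs were summed over the cells of a group per library and expressed as CPM. Genes met the size rule at a mean CPM of at least 50, a log2 ratio of CPM + 1 of at least 1 in size, and a 95% interval of the ratio that excluded 1; list genes needed a mean CPM of 5 and a 1.5-fold ratio with such an interval. Between groups of cells the limit had to be met in both libraries. Shares have Clopper-Pearson intervals and ratios exact conditional binomial intervals. No p-value was computed. The members and the gene lists were chosen with earlier results of these data known.

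Genes were named by rule: the 10 largest ratios in each direction between times among those that met the size rule, the 15 highest and 10 lowest in members against the other suprabasal cells, the rule genes and genes of the fixed lists. Chosen after their values were seen, and outside that rule, were Isl1, Nkx2-3, Tlx1, Lmo1, Akr1b8, Cyp2f2 and Ndufa4l2, and the choice among list genes in the Krt4-matched and Slc7a11 comparisons. The size rule was tested on simulated data for the comparison of times inside the members, over 32285 genes. It was met by 0 of 71 genes changed 1.5-fold, 66 of 66 changed 2.5-fold, 63 of 63 changed 4-fold and 0 of 2413 unchanged. The summed counts were drawn as Poisson counts from a shared profile, with no spread between cells, animals or libraries. The simulation therefore covers counting error only and cannot show how often the rule is met without a change between the times. Alternatives covered the rule for members, cell filters, scaling (edgeR 4.0.16 TMM in R 4.3.3), pseudocount, minimum CPM, thinning to 5000 UMIs, averaging over cells and the comparison group. Python 3.11.15, numpy 2.4.6, pandas 2.3.3, scipy 1.17.1 and matplotlib 3.10.9 were used.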

Additional observations from a re-analysis of the deposited data

Results flagged for a closer look

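Between ZT0 and ZT12, 3 of the genes at least 2-fold apart in members had a ratio in the opposite direction in another group of cells, with a mean CPM of at least 50 there and an interval that excluded 1, and none of these differences was tested. Krt14 had a log2 ratio of -1.25 in members, 0.15 in hemidesmosome-high cells and 1.29 in Krt76-high cells. Sprr1a, a cornified envelope precursor, had -1.21 in members and 0.57 in Krt76-high cells, and Krt10 had -1.04 and 1.77. Below that level, Krt79 had -1.47 in members and 1.04 in Krt76-high cells, and Crabp1 had 1.02 in members and -0.27 in the other suprabasal cells. The Krt76-high cells number 29 at ZT0 and 40 at ZT12, and in members most UMIs of these genes lay in a few cells.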

How the results depend on the processing

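The share of members kept its ratio between times within 0.96 to 1.13 under each alternative run. Inside the members the count higher at ZT12 (4) became 7 with at least 2 rule genes per cell, 2 with a pseudocount of 5, 8 without interferon-high members, and 9 and 1 at a minimum CPM of 20 and 100; the count lower (16) became 8 without interferon-high members, and 34 and 9 at those minima. Interferon genes lower (14) became 9 with at least 2 rule genes, 3 without interferon-high members and 6 at CPM 20. The fall to 3 is built in, because that filter removes cells by the same genes. Antigen presentation (10) became 6 without interferon-high members and 6 at CPM 20, cornified envelope (9) became 2 without interferon-high members, and proliferation (8) became 0 with a summed limit of 5, 2 with Krt4 at 50 or more, and 0 at CPM 20. Against all other kept cells 27 genes were higher and 69 lower, and against Krt76-high cells 66 and 141; Krt4 matching gave 13 lower. Glutathione genes higher became 15, and basal genes lower 2, against Krt76-high cells, and basal genes lower 3 with Krt4 matching. The cause was not tested.

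Directions that reversed, as log2 ratios at ZT12 over ZT0: with a summed limit of 5, Stmn1 0.0163 and Krt17 -0.14; with at least 2 rule genes, Krt79 0.54; without the 5% of cells with the most UMIs, Krt10 0.0524; with Krt4 at 50 or more, Krt79 0.42 and Krt17 -2.90; without interferon-high members, Lor 0.0644, Krt79 0.53 and Sprr1a 0.97. In members against others, Gclm was -0.13 against all other kept cells, and Gm3776 -0.35, Gpx2 -0.32 and Srxn1 -0.14 against Krt76-high cells. No paired analysis was possible because each time has 1 library. The Krt4 and interferon alternatives were chosen after seeing the data. With 1 library per time, animal and library effects cannot be told apart from time.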
